A study of Mus musculus with 6 samples.

Results

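The 10 genes Cspg4, Cspg5, Vcan, Bgn, Sdc1, Sdc2, Sdc3, Sdc4, Gpc1 and Hspg2 encode core proteins of chondroitin, dermatan and heparan sulfate proteoglycans, and they were read by symbol from a count table and an FPKM table that each list 41079 genes. All 10 were present and all 10 passed the filter on low counts. The group was chosen by measured values of this same contrast, in which Cspg4 had already been seen to differ, so the differences of its members are given as a description and carry no test. The study asked which culture conditions keep primary mouse microglia, the resident macrophages of the brain, closer to their state in tissue. RNA was sequenced from microglia of C57Bl/6N mice aged 1 to 3 days, in 3 control libraries and 3 libraries from optimized cultures. Control cells were kept in serum-free DMEM/F12. The labels give the optimized cells human TGFbeta, human IL34 and CX3CL1, each at 100 ng/mL, and the methods add cholesterol, insulin-transferrin-selenium and a collagen IV coating, so that the effects of the single additions cannot be told apart. All cells, those of the controls included, came from mixed glial flasks that pooled several brains and had been stimulated with L-929 conditioned medium, and were collected by shaking. Per the methods, the flasks were kept in medium with serum for weeks before collection. The collected cells also adhered briefly in such medium before it was replaced.

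Proteoglycans are proteins that carry long sulfated sugar chains, built on serine residues by a shared linkage sugar and then extended as chondroitin, dermatan or heparan sulfate. The chains bind growth factors, chemokines and matrix proteins, and the core protein decides whether they sit in the membrane, in the basement membrane or in loose matrix. In the brain, Cspg4 (also called NG2) is best known as a membrane proteoglycan of oligodendrocyte precursors and pericytes, while Sdc3 and Sdc4 belong to the syndecans, a family of membrane heparan sulfate proteoglycans.

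The libraries held between 20628148 and 27261839 counts. Of 14618 genes tested with edgeR's quasi-likelihood test at an adjusted p-value of 0.05, 14.7% were called higher and 15.2% lower under optimized conditions, and the median log2 fold change of all genes was 0.01. Higher genes made up 49.1% of the calls, and 32.3% with library size alone, which moved the median of all genes to -0.12. The study calls the libraries of each condition biological replicates, the labels do not name separate cultures, and p-values measure only the spread between these samples. In bulk RNA, fewer cells of a type and less RNA per cell cannot be told apart. Of 9 microglial markers in the tables, 6 rose and 2 fell, with levels read as CPM (depth-normalised counts after TMM scaling). Cx3cr1, the fractalkine receptor, averaged 297 CPM in the controls and 1322 CPM under optimized conditions, and Tmem119 averaged 6.29 and 96.8 CPM. Csf1r and Aif1 were the 2 that fell, with log2 fold changes of -0.39 and -0.45, and C1qa was not called. Among astrocyte, oligodendrocyte, neuron, endothelial and border-associated macrophage markers, 0 or 1 rose and 0 or 1 fell in each list. Some of these changes were large. The highest endothelial marker, Flt1, rose from 83.0 to 298 CPM on average, and the highest astrocyte marker, Aldh1l1, fell from 16.5 to 4.64 CPM. In the border-associated macrophage list, Mrc1 fell from 330 to 62.7 CPM and Pf4 rose from 157 to 227 CPM. Optimized library 1 stood apart in smooth muscle genes and in some pericyte and endothelial genes. Rgs5 and Emcn had 37 and 21 counts there and 0 or 1 elsewhere, while the endothelial genes Kdr and Pecam1 did not stand apart. Optimized library 3 stood apart in fibroblast genes. The log2 fold changes of the members are therefore also given without optimized library 1 and without optimized library 3.

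Cspg4 lies on chromosome 9 of GRCm39 at 56772317 to 56807187, on the plus strand, in 10 exon blocks. The bases upstream of its first annotated exon are shown because the optimized medium contained TGFbeta, whose SMAD proteins bind short CAGAC and GGCGCC elements. Those of Sdc3 follow as the member with the highest level and the opposite direction. Sequences are from the RefSeq promoter table of GRCm38.p6, each matched exactly once in GRCm39, and read 5′ to 3′ on the gene's strand. Capitals mark both SMAD elements and the GC box (written GGGCGG), read on either strand.
Cspg4, chr9:56772138-56772316, plus strand: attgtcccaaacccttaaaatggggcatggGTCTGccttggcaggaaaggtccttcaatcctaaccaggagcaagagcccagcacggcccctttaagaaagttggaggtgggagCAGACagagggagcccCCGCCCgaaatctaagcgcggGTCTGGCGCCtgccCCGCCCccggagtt
Sdc3, chr4:130519598-130519825, plus strand: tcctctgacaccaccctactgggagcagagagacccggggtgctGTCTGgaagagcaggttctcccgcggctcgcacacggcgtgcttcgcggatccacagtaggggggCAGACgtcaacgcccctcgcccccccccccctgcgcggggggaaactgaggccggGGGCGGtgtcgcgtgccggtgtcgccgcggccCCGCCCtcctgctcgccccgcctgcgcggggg

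RefSeq windows were found for 7 of the 10 members, and none was listed for Cspg5, Sdc2 and Gpc1. In the 250 bases before the RefSeq start, searched on both strands, Cspg4 held CAGAC at 220, 136 and 99 bases upstream, and GGCGCC at 95 bases upstream, which shares 1 base with the last of these. At least 1 CAGAC match occurred in 42.2% of 32851 mouse promoter windows of the same length, and in 3 of the 7 member windows. At least 3 matches occurred in 2.32% of all windows, but this cut equals the count in Cspg4 itself, so the share is no test. Sdc3 held 2 matches and Sdc1 held 1, whereas Sdc4, Vcan, Bgn and Hspg2 held none. The windows are not alike, because 188 bases of the Sdc1, 183 of the Vcan and 153 of the Sdc4 window lie in annotated exons. In the Cspg4, Hspg2, Sdc3 and Bgn windows these were 71, 35, 22 and 0 bases. GGCGCC was also in the Hspg2 window and in 9.59% of all windows. The GC box was in all 7 member windows against 32.7% of all windows, which have a median GC content of 52.4%, while the Cspg4 window has 60.4% and the Sdc3 window 76.4%. GAGGAA, the core bound by the macrophage factor PU.1, was in the windows of Sdc1 and Bgn and in 23.3% of all. The AP-1 site TGANTCA was in none of the 7 and in 6.75% of all windows. A TATA box, with the letters TATAAA, was in none of the 7 and in 12.4% of all. These matches describe letters only, and no binding was measured.

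Cspg4 encodes a single-pass membrane core protein of 2327 residues. Its counts were 903, 663 and 736 in control libraries 1 to 3, and 13044, 10217 and 9895 in optimized libraries 1 to 3. Scaled for depth, these were 39.5, 27.0 and 26.9 CPM in control and 618, 435 and 479 CPM in optimized libraries. Every optimized library lay above every control library, and library 1 was the highest in both groups. The fitted log2 fold change was 4.04 ± 0.19 (SE, n = 3 and 3), or 16.4-fold higher in optimized cultures. This placed Cspg4 at rank 47 from the top among the 14618 genes. Per length, its level was 3.94 ± 0.99 FPKM (the deposited level per gene length and library depth, SD, n = 3) in control and 58.8 ± 13.1 FPKM in optimized cultures, which is percentile 45.0 and percentile 94.2 among the genes tested. The similar gene Cspg4b had 0, 2 and 0 counts in the controls, against 19, 2 and 0 under optimized conditions, too few for the test.

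**Figure D1:**
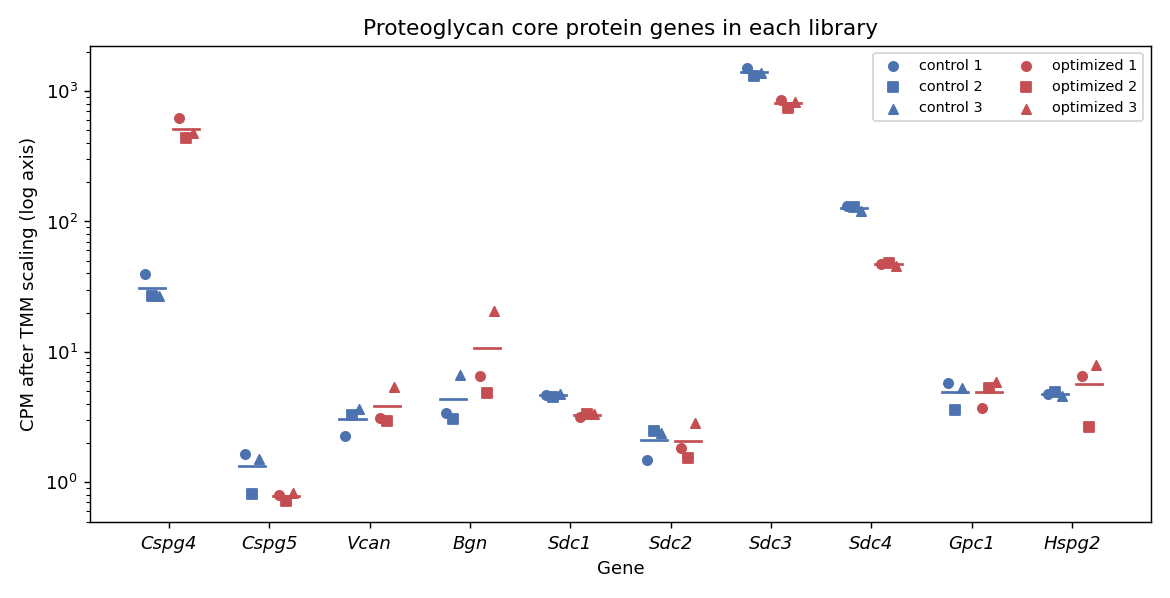
CPM after TMM scaling (log axis) of the 10 proteoglycan core protein genes in each of the 6 libraries, with control in blue, optimized in red, symbols for library 1 (circle), 2 (square) and 3 (triangle), and bars for the group means. Cspg4 lay between 26.9 and 39.5 CPM in control and between 435 and 618 CPM in optimized libraries, Sdc1, Sdc3 and Sdc4 were lower in every optimized library, and the other 6 genes overlapped between the groups.

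Markers of the 2 cell classes known for Cspg4 were read in the same libraries. Of 10 oligodendrocyte precursor genes, 7 passed the filter and 0 of these were called by edgeR. Their summed level was 13.7, 17.2 and 15.8 CPM in control and 18.2, 20.5 and 22.2 CPM in optimized libraries, which did not overlap. Cspg4 alone was above that sum in every library. Pdgfra, the growth factor receptor that defines these precursors, had 63, 85 and 83 counts in the controls, against 89, 56 and 85 under optimized conditions, with overlap. Olig1, the highest of the list, had a log2 fold change of 0.49 ± 0.20 and was not called.

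Of 10 pericyte and smooth muscle genes, 2 passed the filter and 0 of these were called. Their sum was 5.90, 6.89 and 6.63 CPM in control libraries and 25.4, 4.51 and 9.19 CPM in optimized libraries. The members of the list did not move together. Myh11 and Des, contractile or cytoskeletal muscle genes, and Rgs5, a pericyte marker, had 145, 63 and 37 counts in optimized library 1 and 0 in optimized libraries 2 and 3, and Des, Kcnj8 and Higd1b were at 0 in every library but optimized library 1. Pdgfrb, the receptor that defines pericytes and 1 of the 2 genes that passed the filter, had 18, 30 and 21 counts in the controls and 21, 7 and 48 under optimized conditions, so that it was highest in optimized library 3. Acta2, the other gene that passed and the highest of the list, had 97, 121 and 141 counts in the controls. Under optimized conditions it had 239, 94 and 125 counts, with overlap. Vtn had 6, 4 and 8 counts in the controls and 1, 1 and 6 under optimized conditions. The log2 fold change of Cspg4 was 3.88 without optimized library 1. Without optimized library 3, where the fibroblast sum was 153 CPM against 31.4 to 50.2 CPM elsewhere, it was 4.08. The part of these markers in the Cspg4 values was not tested.

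**Figure D2:**
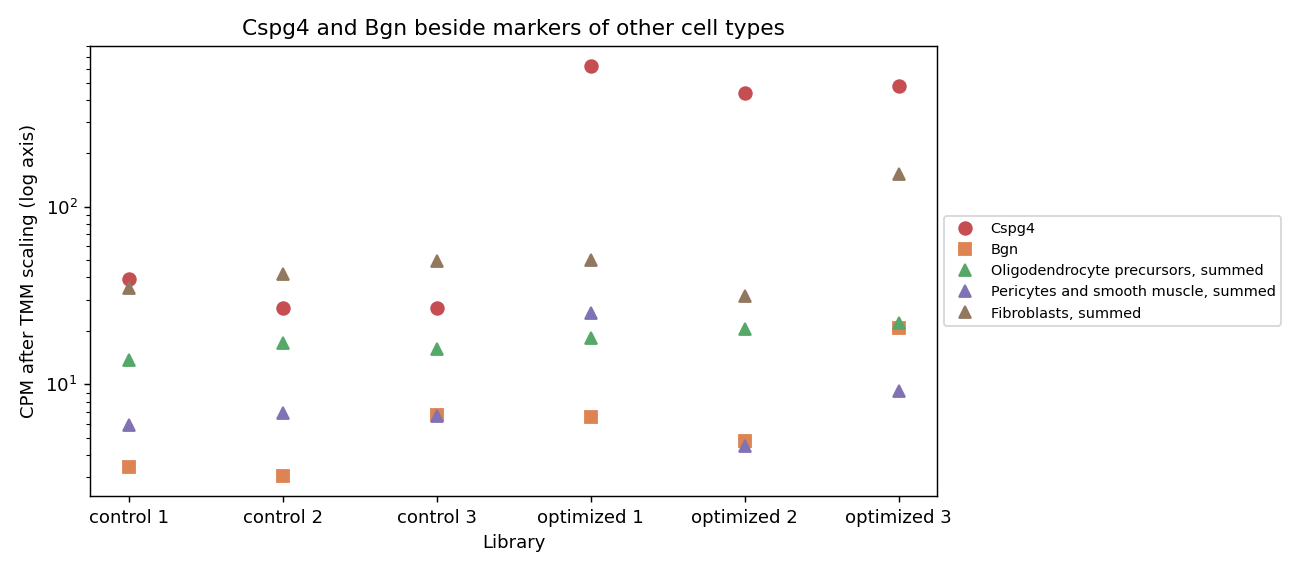
Level of Cspg4 and Bgn and summed levels of the oligodendrocyte precursor, pericyte and smooth muscle, and fibroblast marker lists in each library, as CPM after TMM scaling on a log axis. Cspg4 was high in all 3 optimized libraries, the pericyte and smooth muscle sum was high in optimized library 1 (25.4 CPM), and Bgn and the fibroblast sum were highest in optimized library 3 (20.7 and 153 CPM).

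The profile of Cspg4 was compared with 9838 other genes by the root mean square distance between centred log2 CPM values over the 6 libraries. Mrc2, an endocytic receptor for collagen, was nearest, at a distance of 0.14 on the log2 scale. Its counts were 43, 27 and 35 in the controls, against 573, 567 and 544 under optimized conditions. Igfbp5, a secreted binding protein for insulin-like growth factors, followed at 0.17, with 267, 251 and 311 counts in the controls, against 4186, 3570 and 3750 under optimized conditions. Cyp4f18, a fatty acid hydroxylase, was at 0.26, as was Mcam, an adhesion molecule also used as a marker of pericytes and endothelium. Mcam had 39, 39 and 44 counts in the controls, against 594, 757 and 600 under optimized conditions, without overlap. Angptl2, a secreted angiopoietin-like protein, was at 0.32. The distances describe likeness over 2 groups of libraries and largely reflect a difference of like size between them, with log2 fold changes of 3.61 to 4.19 among these 5 genes.

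The other core proteins that carry chondroitin or dermatan sulfate did not share the size of the Cspg4 difference. Cspg5 (chromosome 9, 110072851 to 110091644, plus strand) encodes neuroglycan C, a membrane proteoglycan known mainly from neurons. It had 38, 20 and 41 counts in the controls, against 17, 17 and 17 under optimized conditions. The CPM values of 0.82 in control library 2 and 0.82 in optimized library 3 bring the groups into overlap, and the log2 fold change was -0.76 ± 0.35. Such counts leave a wide error, and with 1 library left out the value ranged from -1.01 to -0.57.

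Vcan (chromosome 13, 89803431 to 89890814, minus strand) encodes versican, a large hyaluronan-binding proteoglycan of the matrix. Its counts were 52, 81 and 99 in the controls, against 66, 69 and 112 under optimized conditions. The groups overlapped, and the log2 fold change was 0.31 ± 0.28, with 0.43 without optimized library 1 and -0.02 without optimized library 3. Bgn (chromosome X, 72527208 to 72539541, plus strand) encodes biglycan, a small leucine-rich proteoglycan of connective tissue that can also signal through Toll-like receptors.

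Bgn had 78, 75 and 183 counts in the controls, against 138, 113 and 427 under optimized conditions. Library 3 was the highest of each group, and the groups overlapped because control library 3, at 6.70 CPM, was above optimized libraries 1 and 2, at 6.53 and 4.81 CPM. The log2 fold change of 1.26 ± 0.51 became 1.51 without optimized library 1 and 0.36 without optimized library 3, where Bgn reached 20.7 CPM. That library also held 1488 counts of the fibroblast collagen Col3a1, against 211 to 573 in the others. Of 8 fibroblast markers, 7 were tested and 0 were called, and the sum of the list was 35.0, 41.9 and 49.6 CPM in control and 50.2, 31.4 and 153 CPM in optimized libraries. The part of these markers in the Bgn values was not tested.

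**Figure D3:**
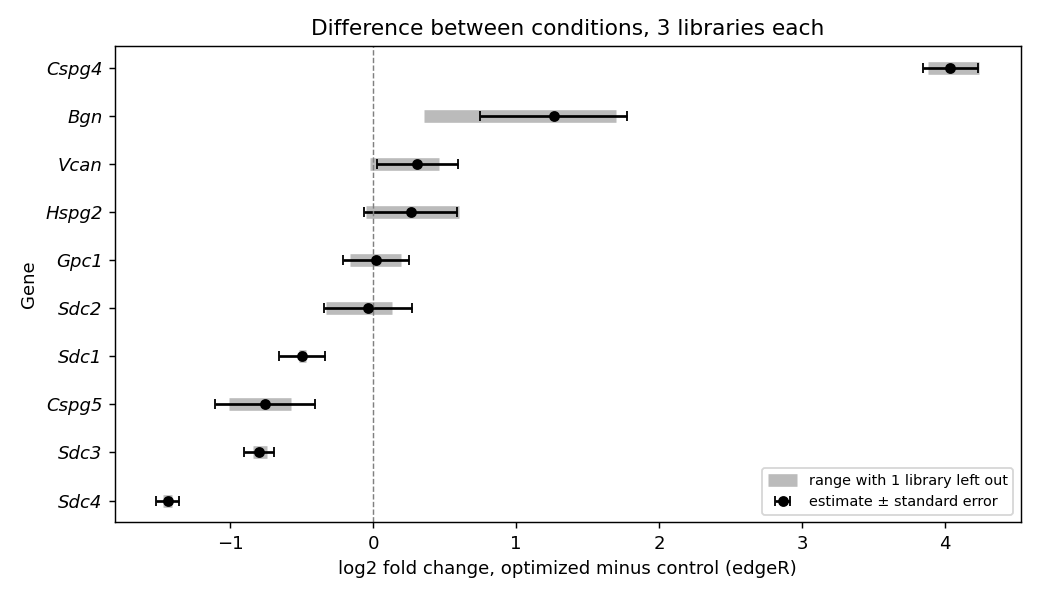
Fitted log2 fold change (optimized minus control, edgeR, n = 3 and 3) of the 10 genes as points with standard errors, and as grey bars the range of the value when each of the 6 libraries was left out in turn. Cspg4 stayed between 3.88 and 4.24 and Sdc4 between -1.47 and -1.41, while Bgn ranged from 0.36 to 1.70.

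Sdc3 was the most abundant member in both conditions. It lies on chromosome 4 at 130519826 to 130556217, on the plus strand, and encodes the syndecan of neural tissue, a core protein of 442 residues. Its counts were 34618, 32221 and 37279 in the controls, against 17995, 17388 and 16962 under optimized conditions. Each optimized library, at 740 to 852 CPM, was below each control library, at 1314 to 1513 CPM. The log2 fold change was -0.80 ± 0.10, or 1.74-fold lower. Even so, 804 ± 57.6 CPM (SD, n = 3) remained, above the 510 ± 95.4 CPM of Cspg4 in the same libraries on this scale, which is not corrected for length.

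Sdc4 (chromosome 2, 164266025 to 164285807, minus strand) encodes the syndecan of focal adhesions, with 198 residues the shortest core protein of the group. It had 2999, 3177 and 3315 counts in the controls, against 1002, 1135 and 940 under optimized conditions. The libraries were tight within each group, at 127 ± 5.25 and 47.1 ± 1.46 CPM (SD, n = 3 each), with no overlap. The log2 fold change was -1.44 ± 0.08, or 2.70-fold lower, at rank 410 from the bottom of all genes tested.

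Sdc1 (chromosome 12, 8820854 to 8843725, plus strand), the syndecan of epithelia and plasma cells, had far fewer counts than Sdc3 or Sdc4. Its counts were 107, 111 and 129 in the controls, against 67, 79 and 69 under optimized conditions. The groups did not overlap, at 4.53 to 4.72 CPM and 3.17 to 3.36 CPM. The log2 fold change was -0.50 ± 0.16. It was among the members called lower, a call kept in 5 of 14 alternatives. Sdc2 (chromosome 15, 32920699 to 33035213, plus strand), the syndecan of mesenchymal cells, had 34, 61 and 65 counts in the controls, against 39, 36 and 59 under optimized conditions, which overlapped. Its log2 fold change was -0.04 ± 0.31, with 0.03 without optimized library 1 and -0.33 without optimized library 3.

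Gpc1 (chromosome 1, 92759062 to 92792113, plus strand) encodes glypican 1, which is held in the membrane by a lipid anchor. Its counts were 133, 88 and 144 in the controls, against 78, 125 and 121 under optimized conditions. The groups overlapped and the log2 fold change was 0.02 ± 0.23, with 0.19 without optimized library 1 and -0.115 without optimized library 3. Gpc1 shares 1600 exonic bases with Ankmy1 on the other strand, and the strand setting of the counting is not given in the sources used here. Ankmy1 itself had 4 to 15 counts per library.

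Hspg2 (chromosome 4, 137196079 to 137298231, plus strand) encodes perlecan, a basement membrane proteoglycan of 4383 residues with 102 exon blocks. It had 109, 120 and 125 counts in the controls, against 139, 62 and 164 under optimized conditions. The control libraries agreed closely, at 4.58 to 4.89 CPM, whereas the optimized ones spread from 2.64 to 7.93 CPM around them. The log2 fold change was 0.26 ± 0.33, and it was 0.14 without optimized library 1, 0.60 without optimized library 2 and -0.05 without optimized library 3.

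In count, 1 of the 10 members was called higher against the 14.7% of all genes, and 3 were called lower against 15.2%. Since this contrast chose the members, nothing is read from these counts. The groups of libraries did not overlap for Cspg4, Sdc1, Sdc3 and Sdc4. The share of all genes tested without overlap was not computed, so nothing is read from this lack of overlap. Aplp2 and Adam17, which were not called, did not overlap either. Without optimized library 1, the log2 fold changes of Sdc1, Sdc3, Sdc4 and Cspg5 were -0.47, -0.84, -1.44 and -0.78. Without optimized library 3 they were -0.505, -0.81, -1.41 and -0.79. Of the 6 members that were not called, Gpc1, Sdc2, Hspg2 and Vcan had log2 fold changes between -0.04 and 0.31, while Cspg5 was at -0.76 and Bgn at 1.26 with errors of 0.35 and 0.51.

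Per length, Cspg4 and Sdc4 exchanged places between the conditions. In control cultures Sdc3 stood at 248 ± 22.4 FPKM, Sdc4 at 46.8 ± 3.58 FPKM and Cspg4 at 3.94 ± 0.99 FPKM (SD, n = 3), with every library of each above every library of the next. Bgn at 1.77 ± 0.74 FPKM and Sdc1 at 1.43 ± 0.04 FPKM followed and overlapped. Gpc1 and Sdc2, at 0.70 and 0.65 FPKM, overlapped as well, as did Cspg5 and Hspg2 at 0.35 and 0.34 FPKM, and Vcan was last at 0.20 FPKM. In optimized cultures the order was Sdc3 at 130 ± 14.6 FPKM, Cspg4 at 58.8 ± 13.1 FPKM and Sdc4 at 15.7 ± 0.57 FPKM, again without overlap. Bgn at 3.99 ± 3.30 FPKM and Sdc1 at 0.92 ± 0.03 FPKM came next, and the last 5, from Gpc1 at 0.64 to Cspg5 at 0.19 FPKM, each overlapped with their neighbour.

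As a share of the summed FPKM of the 10 genes, Cspg4 made up 1.52%, 1.18% and 1.15% in control libraries and 30.9%, 26.3% and 25.7% in optimized libraries. Sdc3 made up 81.5% ± 0.74 in control and 61.6% ± 1.51 in optimized cultures, and Sdc4 15.4% ± 0.93 and 7.50% ± 0.87 (SD, n = 3 each). The summed level was 333, 296 and 284 FPKM in control and 237, 181 and 216 FPKM in optimized libraries, lower in every optimized library. The 4 members grouped here under chondroitin or dermatan sulfate were Cspg4, Cspg5, Vcan and Bgn. Together they held 2.06% ± 0.27 of the sum in control and 29.7% ± 2.36 in optimized cultures, of which Cspg4 alone made up 1.28% and 27.6%. These are shares of transcripts, and neither protein nor sugar chains were measured.

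**Figure D4:**
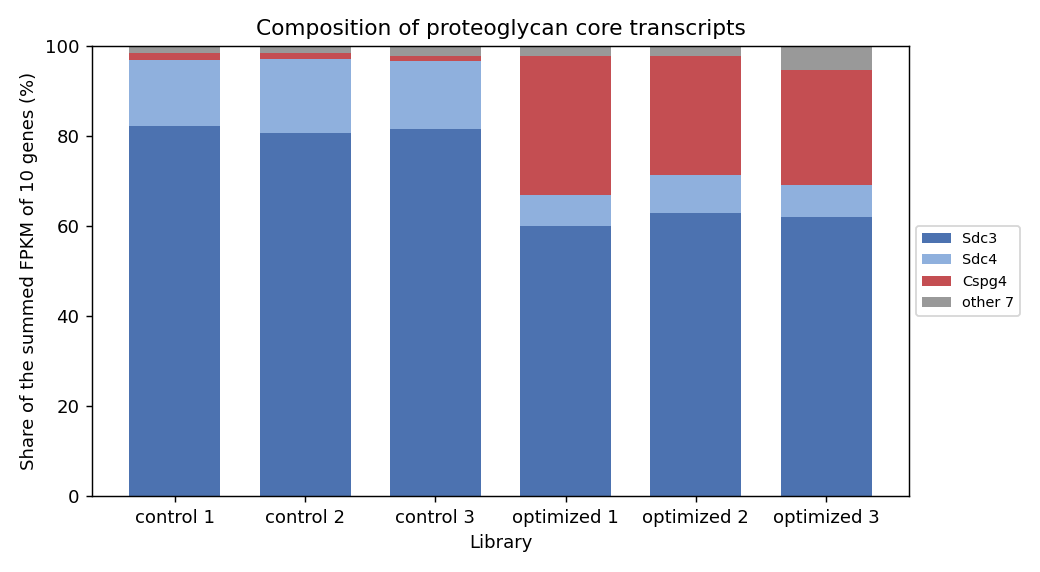
Share of the summed FPKM of the 10 genes (percent) held by Sdc3, Sdc4, Cspg4 and the other 7 genes together in each library. Cspg4 took 1.15% to 1.52% in control and 25.7% to 30.9% in optimized libraries, and Sdc3 was the largest share throughout.

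Other genes of proteoglycan biology were read from 11 lists of 155 genes, of which 111 were tested with edgeR. Of these 111, 34 rose and 21 fell, or 30.6% and 18.9%, beside 14.7% and 15.2% of all genes tested, and the median log2 fold change was 0.12 beside 0.01. When scaled by library size alone, 27 rose and 28 fell, and the shares of all genes were 10.4% and 21.7%. Without optimized library 1 the counts were 37 and 24, and without optimized library 3 they were 27 and 19.

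Among 10 other core proteins with chondroitin or dermatan sulfate, 1 rose and 4 fell, with a median of -0.13. Srgn, the proteoglycan of secretory granules in blood cells, rose from 115 ± 15.2 to 173 ± 33.1 CPM (SD, n = 3 each; log2 fold change 0.60 ± 0.15, edgeR adjusted p = 0.0129). This call was lost without control library 1, control library 2 or optimized library 3, at edgeR adjusted p = 0.0652, 0.0582 and 0.0541. Nrp1, a co-receptor for semaphorins and VEGF, fell from 466 ± 15.9 to 241 ± 16.3 CPM (log2 fold change -0.95 ± 0.09, edgeR adjusted p = 2.49e-05). Cd74, the invariant chain of class II antigen presentation, fell by 0.78 ± 0.12 on the log2 scale (edgeR adjusted p = 0.00101). Cd44, a hyaluronan receptor, and Thbd, or thrombomodulin, were the other 2 that fell, by 0.54 and 0.67. The Thbd call was lost without control library 1, 2 or 3 or optimized library 2 or 3, at edgeR adjusted p = 0.0988, 0.091, 0.104, 0.104 and 0.0783. Aplp2, the most abundant of the list, was at 774 and 842 CPM and did not pass the test. Of 7 other heparan sulfate core proteins, 1 rose and 0 fell: Gpc2, a glypican, went from 4.28 ± 0.61 to 14.5 ± 1.13 CPM (log2 fold change 1.76 ± 0.14, edgeR adjusted p = 1.13e-05). Gpc2 shares 2376 exonic bases with a predicted gene on its own strand. Agrn, or agrin, was at 48.9 and 39.8 CPM with overlap, and none of the 3 small leucine-rich proteoglycans tested was called, Lum being at 0.51 and 0.65 CPM.

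The enzymes that start the chains moved in both directions. Of 14 genes for the linkage region, precursors and sulfate donor, 3 rose and 2 fell. The 2 xylosyltransferases, which add the first sugar to the core protein, moved oppositely. Xylt1 rose from 14.4 ± 2.34 to 42.9 ± 16.4 CPM (log2 fold change 1.58 ± 0.25, edgeR adjusted p = 0.000899), while Xylt2 fell from 136 ± 8.05 to 71.8 ± 4.85 CPM (log2 fold change -0.92 ± 0.09, edgeR adjusted p = 3.4e-05). B4galt7, which adds the next sugar, rose by 0.70 ± 0.09 on the log2 scale, and Slc35b2, a transporter of the sulfate donor, by 0.30. Ugdh, which makes the glucuronic acid donor, fell by 0.32 ± 0.09. The Ugdh call was lost without control library 2, control library 3 or optimized library 3, at edgeR adjusted p = 0.0832, 0.0634 and 0.0594. The Slc35b2 call was lost in 9 of 14 alternatives, among them library size alone (edgeR adjusted p = 0.201) and the fits without control library 1, 2 or 3 or optimized library 2 or 3 (0.185, 0.104, 0.108, 0.13 and 0.152).

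Of 13 enzymes of chondroitin and dermatan sulfate chains, 3 rose and 4 fell. Chst3, a chondroitin 6-sulfotransferase, rose from 5.91 ± 0.95 to 19.5 ± 3.20 CPM (log2 fold change 1.72 ± 0.16, edgeR adjusted p = 3.07e-05). Chst7, the other 6-sulfotransferase of chondroitin, fell from 12.8 ± 0.04 to 1.65 ± 0.20 CPM (log2 fold change -2.94 ± 0.15, edgeR adjusted p = 5.91e-07), and it shares 1142 exonic bases with Slc9a7 on the other strand. The chain polymerase gene Chsy1 rose by 0.79 ± 0.11 and Ust, a uronyl 2-sulfotransferase, fell by 1.39 ± 0.17 on the log2 scale. Chst11, a 4-sulfotransferase, rose by 0.41, and Dse, the dermatan sulfate epimerase, and Csgalnact2 fell by 0.92 and 0.57. The Chst11 call was lost in 5 of 14 alternatives, among them library size alone (edgeR adjusted p = 0.207) and the fits without control library 2 or 3 (0.148 and 0.137). Chpf2 was the highest at 127 and 128 CPM and was not called. Of 13 enzymes of heparan sulfate chains, 4 rose and 2 fell. Extl3, which adds the first glucosamine of heparan sulfate, rose from 85.1 ± 7.40 to 246 ± 19.5 CPM (log2 fold change 1.53 ± 0.10, edgeR adjusted p = 2.47e-06), and Sulf2, an extracellular sulfatase that trims the finished chain, rose by 1.28 ± 0.11. Ext2, the other polymerase subunit, and Hs2st1, a 2-O-sulfotransferase, rose by 0.54 and 0.32. Ext1, a polymerase subunit, and Ndst2, an N-deacetylase and sulfotransferase, fell by 0.53 ± 0.16 and 0.51 ± 0.09. The Ext1 call was lost without control library 1, 2 or 3 or optimized library 2, at edgeR adjusted p = 0.0834, 0.11, 0.0888 and 0.0527. The Hs2st1 call was lost in 7 of 14 alternatives, among them library size alone (edgeR adjusted p = 0.286) and the fits without control library 1 or 3 or optimized library 3 (0.165, 0.159 and 0.128). With library size alone, 5 genes of this list fell.

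Of 16 genes of glycosaminoglycan degradation tested, 10 rose and 3 fell, with a median of 0.34. Without control library 1, control library 2 or optimized library 3 the counts were 7 and 2. The lysosomal sulfatase Galns rose from 99.3 ± 7.70 to 288 ± 34.5 CPM (log2 fold change 1.54 ± 0.11, edgeR adjusted p = 4.72e-06), and Arsb, another lysosomal sulfatase, rose by 1.43 ± 0.08 on the log2 scale. Hpse, the heparanase, fell by 0.57 ± 0.09, and Hyal1, a hyaluronidase, by 0.48 ± 0.13. Ids, a lysosomal iduronate sulfatase, fell by 0.42, a call lost without control library 2 (edgeR adjusted p = 0.079). The exons of Hyal1 overlap those of Hyal3 and Naa80 on the same strand, and its call was lost without control library 1, control library 3 or optimized library 3, at edgeR adjusted p = 0.0726, 0.07 and 0.0731.

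Of 10 proteases that cleave core proteins, 3 rose and 3 fell. Adam10, a membrane sheddase, rose from 144 ± 7.90 to 275 ± 16.1 CPM (log2 fold change 0.94 ± 0.09, edgeR adjusted p = 2.53e-05), and Mmp2 rose by 0.98 ± 0.13. Mmp9, a gelatinase, fell from 29.3 ± 6.84 to 1.23 ± 1.20 CPM (log2 fold change -4.60 ± 0.43, edgeR adjusted p = 3.07e-05), and Adamts1 fell by 1.26 ± 0.10. Adamts4, an aggrecanase, rose by 0.78 and Mmp14, a membrane-bound metalloprotease, fell by 0.80. The Adamts4 call was lost in 7 of 14 alternatives, among them library size alone (edgeR adjusted p = 0.0783) and the fits without control library 1 or 3 or optimized library 2 or 3 (0.1, 0.0891, 0.0549 and 0.0784). Adam17 was the highest, at 301 and 267 CPM, and did not pass the test.

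Of 3 hyaluronan genes tested, 1 rose and 1 fell. The hyaluronan synthase Has2 rose by 2.05 ± 0.44 from a low level of 0.26 CPM, the hyaluronan receptor Hmmr fell by 1.28 ± 0.21, and Stab1 was at 2219 and 2251 CPM and was not called. Of 9 receptors and cytoplasmic partners, 1 rose and 1 fell, or 3 fell with library size alone. Rtn4rl1, a Nogo receptor family member that binds chondroitin sulfate, rose by 1.10 ± 0.10, and Cask, a scaffold that binds syndecan tails, fell by 0.60 ± 0.11. Sdcbp, or syntenin, another syndecan partner, was at 1133 and 996 CPM with overlap. Of 13 growth factors and matrix proteins that bind proteoglycans, 7 rose and 1 fell, or 2 fell with library size alone, with a median of 0.44. Fn1, or fibronectin, rose from 471 ± 56.5 to 3332 ± 557 CPM (log2 fold change 2.82 ± 0.15, edgeR adjusted p = 8.88e-07). Fgf2, a heparan sulfate-dependent growth factor, rose from 4.48 ± 0.39 to 26.5 ± 2.98 CPM (log2 fold change 2.57 ± 0.13, edgeR adjusted p = 5.6e-07), and it shares 3073 exonic bases with Nudt6 on the other strand. Lgals3, or galectin 3, fell by 1.04 ± 0.14.

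**Figure D5:**
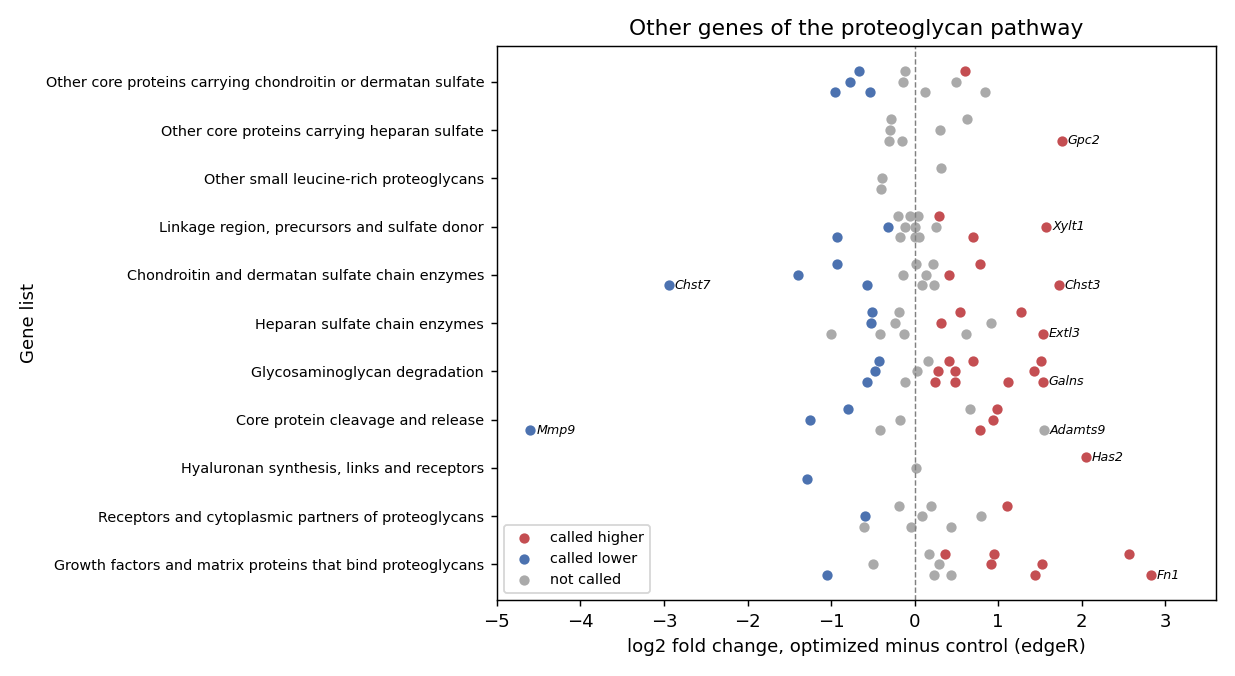
Log2 fold change (optimized minus control, edgeR) of the 111 tested genes in the 11 lists, 1 point a gene, coloured by call at an adjusted p-value of 0.05, with the name of the largest change in each direction of a list where it is over 1.5. Degradation genes (10 of 16 higher) and binding partners (7 of 13 higher) lay mostly to the right, and the other core proteins with chondroitin or dermatan sulfate had 4 of 10 called lower.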

How the data were processed

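RNA was measured by paired-end sequencing in 3 control and 3 optimized libraries. Per the labels and methods, the authors aligned reads to the mm39 build (HISAT2) and summarised them by gene (featureCounts). The versions, annotation and strand setting are not given in the sources used here. They deposited raw counts per gene and FPKM values, in which a gene's value is its count scaled by one factor per library and one per gene.

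Samples were grouped by their labels. Counts were compared in R 4.3.3 with edgeR 4.0.16 (filterByExpr, TMM factors, quasi-likelihood test, Benjamini-Hochberg adjustment over 14618 genes). CPM values use TMM-scaled library sizes. Coordinates, exons and protein lengths are those of GENCODE M39 on GRCm39. Steps were tested on simulated data. Members and lists were chosen with earlier results of these data known. The text names all 10 members, in each list the called genes of at least 5 mean CPM with the 2 largest changes in each direction and the most abundant gene, the 5 genes most like Cspg4 and the highest marker of each cell type where used. A gene that this rule names is not reported here. The other genes named, such as Myh11 or Arsb, were named after their values were seen. Alternatives were RLE factors, library size alone, DESeq2 1.42.0, other count filters (none, or 10 counts in every library), a replicate block, each library left out and limma 3.58.1 on log2(FPKM + 1) and log2(FPKM + 0.1).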

Additional observations from a re-analysis of the deposited data

How the results depend on the processing

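The count totals limit the members with few counts: Cspg5, Sdc2 and Vcan had 17 to 112 counts per library. Cspg4 was called higher, and Sdc3 and Sdc4 lower, in all 14 alternatives. These fits use the same libraries by which the members were chosen. A kept or lost call of a member therefore describes the processing only and is no test. Sdc1 kept its call in 5 of 14 and lost it with DESeq2, without a filter on low counts, with the replicate block and in each of the 6 fits with 1 library left out. Bgn gained a call without a filter, with the replicate block and without optimized library 1 or 2, and Hspg2 without optimized library 2. No member's called value changed sign. Leaving out each library gave 1603 to 2591 genes called higher, 1646 to 2643 lower, and 27 to 37 and 17 to 24 of the listed pathway genes, and 40 of the 55 listed genes with a call kept it in all 14 alternatives. With library size alone the median of all genes was -0.12 and 32.3% of calls were higher, against 49.1% with TMM; Sdc1, Sdc3 and Sdc4 were then at -0.63, -0.92 and -1.57. In limma on log2(FPKM + 1), which understates low genes, Cspg4 was at 3.59 and Cspg5 at -0.18, against 3.87 and -0.605 with log2(FPKM + 0.1). The share of calls that were higher was alike in both, at 31.1% and 31.3%. Same-numbered control and optimized libraries had deviations correlated at 0.27, -0.01 and 0.19, and differently numbered ones lay between -0.29 and 0.19. With 3 libraries per group, these values cannot settle whether the numbers pair the samples. With the replicate block, 2401 genes were called higher and 2523 lower, and 36 and 21 of the listed genes. The causes were not tested.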
